A study of Mus musculus with 2 samples.

Results

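The 9 genes described here are grouped as macrophage identity genes, though several were as high or higher in other cells of this sample. They are the receptor genes Csf1r, Cx3cr1, Adgre1 and Mertk and the transcription factor genes Maf, Spi1, Irf8, Cebpb and Pparg. They were picked by name, with earlier results of these data known, and all 9 were among the 32285 genes of the matrix. The material was islets of Langerhans from male wild-type C57BL/6J mice, pooled from 6 to 8 animals. Live Epcam-negative CD45+ cells, a gate for immune cells, were sorted. Their mRNA was read per cell together with 2 antibody tags, against CD9 and CD206. The design text calls the mice myeloid WT and names no allele. Their age and any treatment are not given in the sources used here. All values come from 1 pooled sample read as 2 libraries, so no difference between mice can be measured, no p-value was computed, and every interval below is a 95% interval for counting error only.

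Macrophages of many tissues depend on the growth factor CSF-1, which acts through the receptor tyrosine kinase encoded by Csf1r. Spi1 encodes PU.1, the factor that opens myeloid enhancers and drives Csf1r itself, and factors such as C/EBP-beta, IRF8, c-Maf and PPAR-gamma then add activation, antigen presentation or lipid programs. Most resident islet macrophages are known to express Cx3cr1, the fractalkine receptor, and F4/80, the product of Adgre1. The comparisons ask how evenly macrophages carried these markers, how far the markers set them apart from dendritic cells and lymphocytes, and how the markers stood in macrophages that carried much inflammatory mRNA.

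Of 2237 barcodes, 2175 cells were kept. Macrophages were the 1669 cells (76.7% of those kept) with at least 5000 RNA UMIs, the unique molecular identifiers that count captured mRNA molecules, and at least 2000 CPM (counts scaled to a common total of UMIs) of the complement genes C1qa, C1qb and C1qc together. The median macrophage held 20843 RNA UMIs and the interquartile range was 16588 to 25448. Just inside the C1q threshold the lowest cell had 2062 CPM and just outside it the highest had 1996 CPM, against a median of 6837 CPM in macrophages and 72.8 CPM in the other cells of that depth. Only 33 cells of enough depth lay between 500 and 2000 CPM. The 51 dendritic cells (median 24262 RNA UMIs) and the 146 lymphocytes (median 9188) were clusters named from marker genes, failing the macrophage rule. The lymphocytes were 109 T and NK cell-like, 29 B cell-like and 8 ILC2-like cells, the last being innate lymphoid cells led by Il5, Gata3 and Il1rl1. The summed level of the 12 macrophage markers, none of them a member, was 28766 CPM in macrophages, 2591 CPM in dendritic cells and 479 CPM in lymphocytes. The C1q genes, which chose the macrophages, are among these markers and gave 7054, 98.6 and 65.5 CPM of the sums. Of the macrophages, 19 clustered with dendritic cells and 10 with endothelial-like cells.

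The receptors Csf1r, Adgre1 and Cx3cr1 had their highest levels in macrophages and monocyte-like cells. Csf1r stood at 330.5 CPM (324.6 to 336.5) in macrophages, 38.3 CPM in dendritic cells and 3.48 CPM in lymphocytes. Its level was 94.9-fold higher than in lymphocytes (40.7 to 292) and 8.63-fold higher than in dendritic cells (6.61 to 11.5). Adgre1, which encodes the adhesion receptor F4/80, stood at 358 CPM, 20.6 CPM and 9.75 CPM in the same order, which was 36.7-fold over lymphocytes (21.9 to 67.1) and 17.4-fold over dendritic cells (12.1 to 26.0). Cx3cr1 was at 109 CPM, 11.3 CPM and 5.57 CPM, or 19.5-fold (9.90 to 45.3) and 9.59-fold (5.90 to 16.8). In lymphocytes 3.42% of cells held a UMI of Csf1r and 8.90% one of Adgre1. Monocyte-like cells had 387 CPM of Csf1r, 166 CPM of Adgre1 and 162 CPM of Cx3cr1.

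Droplets also capture free RNA, so genes that lymphocytes should lack give a background for these values. The macrophage genes C1qa, Apoe and Lyz2 reached 0.924%, 1.69% and 0.709% of their macrophage CPM in lymphocytes, and Csf1r reached 1.05% and Adgre1 2.72%. C1qa was part of the rule that chose macrophages and that lymphocytes failed, so its low share was partly set in advance. Apoe and Lyz2 were not part of that rule. Cx3cr1 reached 5.12%, all of it in 5 T and NK cell-like cells. Maf, Irf8, Cebpb and Pparg, at 519%, 149%, 20.8% and 73.9% of the macrophage level, lay far above that range.

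Mertk, a receptor for apoptotic cells, was sparse. It had 578 UMIs over all macrophages (16.0 CPM, 14.7 to 17.4) in 209 cells (12.5%), and 0 in dendritic cells and in lymphocytes. With a floor of 3 counts over each group, it was at least 7.66-fold higher in macrophages than in lymphocytes and at least 7.52-fold higher than in dendritic cells, and the exact intervals reach down to 6.21-fold and 6.10-fold. By the same floor the 0 of 146 lymphocytes with a UMI allows a share of up to 2.05%, and the 0 of 51 dendritic cells a share of up to 5.88%. These limits are for cells with a UMI, not for cells expressing the gene. Outside the macrophages, 23 endothelial-like cells held 24 Mertk UMIs, 19 of them in 1 cell.

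**Figure D1:**
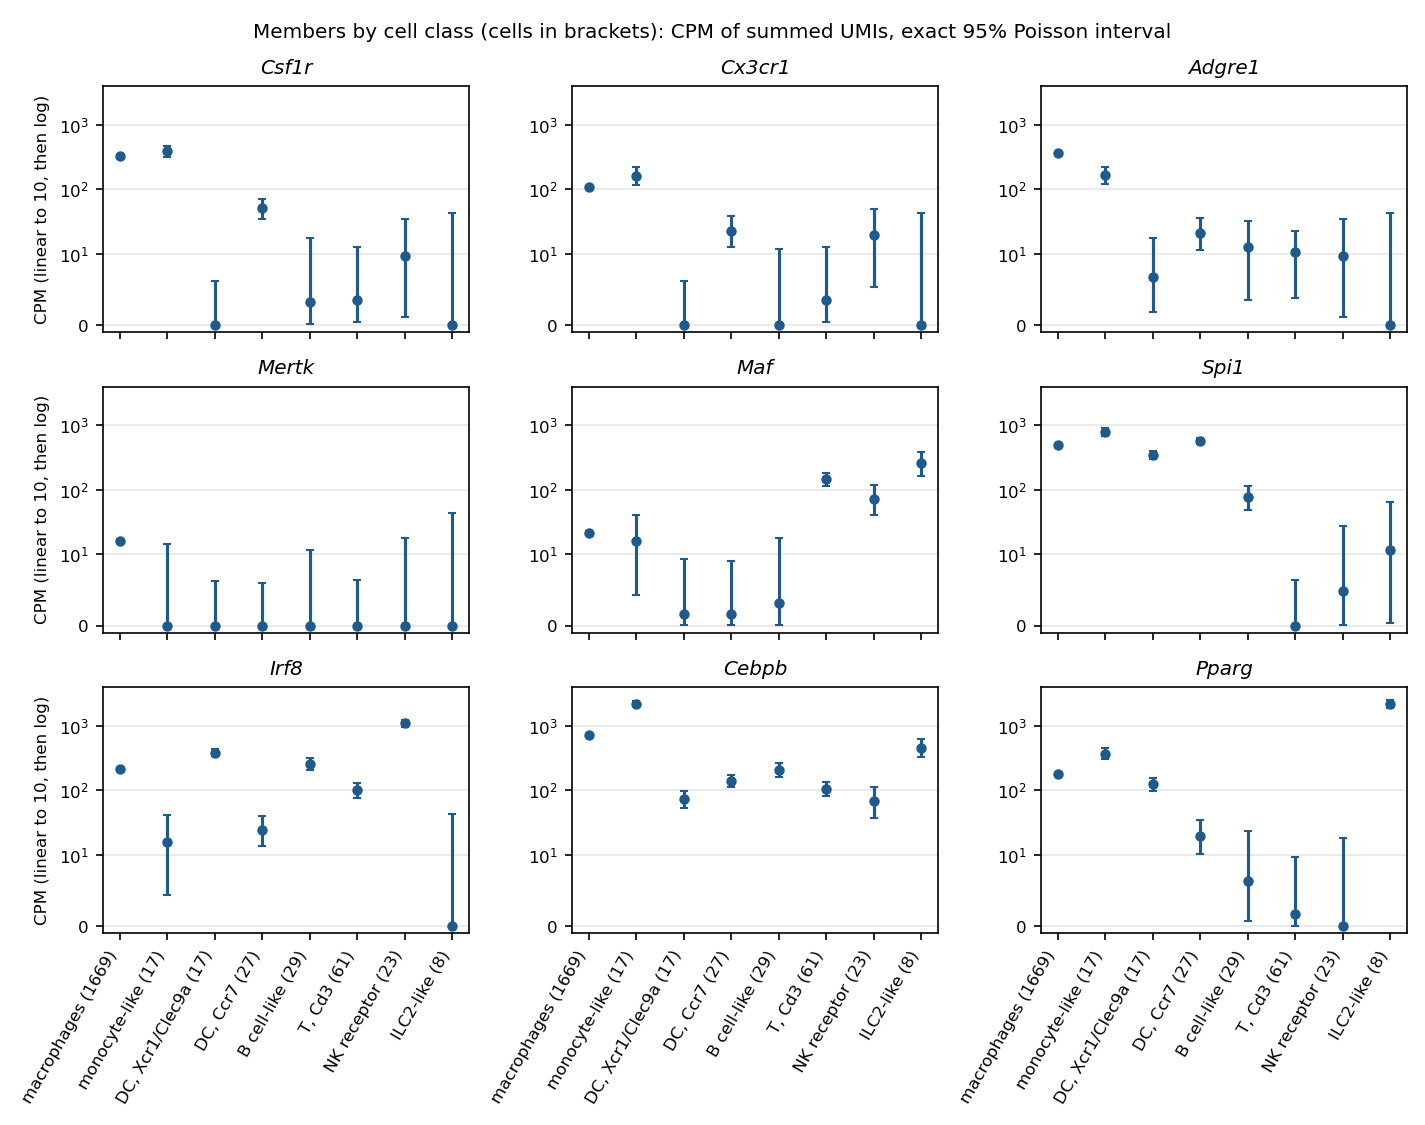
Each panel shows 1 gene and each point 1 cell class (number of cells in brackets), given as the CPM of its pooled UMIs, with its exact 95% Poisson interval, on an axis that is linear up to 10 and logarithmic above. Csf1r, Cx3cr1 and Adgre1 are highest in macrophages and monocyte-like cells, whereas Irf8 is highest in cells with NK receptors (1095 CPM) and Pparg in ILC2-like cells (2188 CPM).

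Among the transcription factors, Spi1 marked the myeloid cells as a whole. It stood at 486 CPM in macrophages and 458 CPM in dendritic cells, a ratio of 1.06 with an interval of 0.980 to 1.15, and all 51 dendritic cells held a UMI. It was 25.8-fold higher in macrophages than in lymphocytes (17.7 to 39.2). Monocyte-like cells had 778 CPM of Spi1, so that macrophages had 0.624 of their level (0.543 to 0.722). Of the 27 Spi1 UMIs of lymphocytes 24 lay in B cell-like cells (76.3 CPM), a lineage known to use PU.1 at a lower level, and the 61 cells with Cd3 and no NK receptor had 0.

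Cebpb, which encodes C/EBP-beta, a factor of the acute inflammatory response, stood at 723 CPM in macrophages, 167 CPM in dendritic cells and 150 CPM in lymphocytes. It was 4.34-fold higher than in dendritic cells (3.82 to 4.95) and 4.81-fold higher than in lymphocytes (4.21 to 5.52). The 17 monocyte-like cells, led by S100a9, S100a8 and Plac8 and also positive for 4 of 6 neutrophil markers, carried more: 2200 CPM (2021 to 2390), so that macrophages had 0.329 of their level.

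Irf8, the interferon regulatory factor that macrophages, B cells, NK cells and a class of dendritic cells share, did not separate macrophages from either group. It stood at 213 CPM in macrophages, 188 CPM in dendritic cells and 318 CPM in lymphocytes, with ratios of 1.13 (1.004 to 1.29) and 0.671 (0.611 to 0.740). Both comparison groups were mixtures. The 17 dendritic cells with at least 2 UMIs of Xcr1 and Clec9a together, the marks of type 1 dendritic cells, had 382 CPM of Irf8. The 27 dendritic cells with Ccr7, the receptor of migrating dendritic cells, and neither of those genes had 24.3 CPM, and the ratio was 15.7 (9.32 to 28.5). One cell held 51 of the 228 UMIs of the first set, which stood at 311 CPM without it. Of the lymphoid cells, the 23 with NK receptors and no Cd3 had 1095 CPM (957 to 1248), the B cell-like cells 257 CPM and the 61 with Cd3 101 CPM. Monocyte-like cells had 15.8 CPM, so macrophages stood 13.5-fold above them (5.27 to 49.6).

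Pparg encodes the lipid-sensing nuclear receptor that shapes alveolar macrophages and fat storage. Its level was 180 CPM in macrophages, 67.4 CPM in dendritic cells and 133 CPM in lymphocytes, or 2.67-fold (2.18 to 3.30) and 1.35-fold (1.17 to 1.57). The 17 monocyte-like cells had more Pparg, 371 CPM, so that macrophages had 0.485 of their level (0.395 to 0.601). The lymphocyte value came from the 8 ILC2-like cells, all of which held Pparg, at 2188 CPM (1886 to 2524). One of them held 56 of the 188 UMIs, and the other cells stood at 1700 CPM. The 138 lymphocytes without the ILC2-like cells had 3 UMIs, and macrophages were then 80.9-fold higher (27.7 to 393). In dendritic cells Pparg followed the Xcr1 and Clec9a set, at 124 CPM, and was at 19.5 CPM in the Ccr7 set.

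Maf, which encodes c-Maf, was the member at least 2-fold lower in macrophages than in lymphocytes, at 109 CPM against 21.1 CPM in macrophages, a ratio of 0.193 (0.162 to 0.230). It was at 256 CPM in ILC2-like cells, 144 CPM in the cells with Cd3 and 72.4 CPM in those with NK receptors, and at 3.18 CPM in B cell-like cells. Dendritic cells held 2 UMIs, and the macrophage level was 14.9 times theirs, with an interval of 4.10 to 123. Endothelial-like cells had 95.5 CPM.

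In all, 6 of the 9 members were at least 2-fold higher in macrophages than in lymphocytes and 1 was at least 2-fold lower, where 14.8% and 36.1% of 13250 genes with at least 20 UMIs were. Against dendritic cells 7 of 9 were at least 2-fold higher and 0 lower, where 12.6% and 16.7% of 13001 genes were. The median log2 ratio of the members, with Mertk at its floor, was 2.94 and 2.91 in these comparisons, and that of all genes −0.71 and −0.28. The shares of lymphocytes with a UMI were measured at their lower depth.

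Other genes of the same families stood as follows. Of 31 transcription factors of myeloid lineages, 30 had enough UMIs, and 14 were higher and 6 lower in macrophages than in lymphocytes (median log2 ratio 0.43). Mitf was 72.1-fold higher and Cebpa, a relative of Cebpb, 48.5-fold. Against dendritic cells 10 were higher and 6 lower, among them Mitf at 6.92-fold and Zbtb46, the factor of conventional dendritic cells, at 0.0418 of the dendritic level. Zbtb46 was one of the markers used to name the dendritic cells, so its value is no result. Of 7 genes of CSF-1 ligands and other growth factor receptors, 6 had enough UMIs, and 4 were higher and 2 lower than in lymphocytes, among the higher ones the GM-CSF receptor genes Csf2ra (33.5-fold) and Csf2rb (18.3-fold). Against dendritic cells 1 was higher and 3 were lower (median log2 ratio −1.21), with Csf2rb at 0.193 of the dendritic level. The lower genes include Flt3, also a marker used to name the dendritic cells. Among 12 receptors and bridging genes for apoptotic cells, 11 had enough UMIs, and 7 were higher and 1 lower than in lymphocytes, and 4 higher and 2 lower than in dendritic cells. Axl, the relative of Mertk, was at 320 CPM in macrophages and 1 UMI in lymphocytes, while Tyro3, another relative, was at 0.166 CPM in macrophages. Of 6 other chemokine receptor genes 3 were higher and 1 lower than in lymphocytes, led by C5ar1 at 141-fold, and 2 were higher and 0 lower than in dendritic cells. Of 16 other macrophage surface genes 12 had enough UMIs, and 8 were higher and 1 lower than in lymphocytes, led by Cd14 at 115-fold, and 5 higher and 3 lower than in dendritic cells. Lyve1, Vsig4 and Marco, marks of some other resident macrophages, were each under 1 CPM in macrophages.

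**Figure D2:**
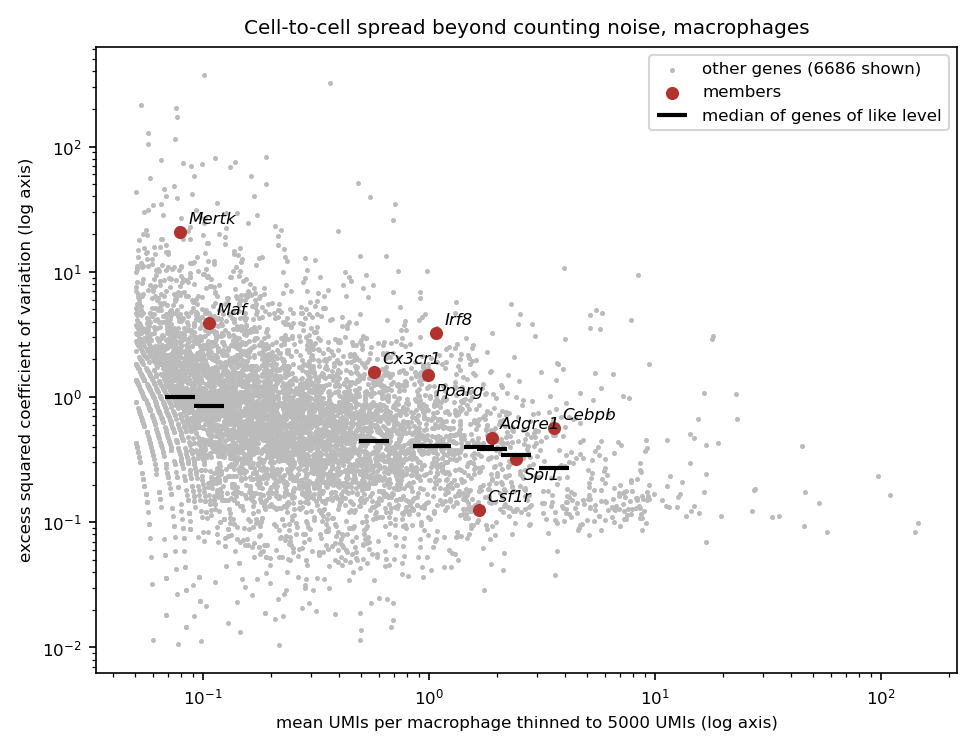
The x axis gives the mean UMIs per macrophage after thinning each of 1669 cells to 5000 UMIs and the y axis the squared coefficient of variation beyond counting noise, both logarithmic. Grey points are other genes and bars the median of genes within 2-fold of the member's mean. Csf1r lies at 0.125, under its bar at 0.401, and Mertk lies at 20.7, above its bar at 0.992.

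Macrophages carried Csf1r more evenly than most genes of its level and Irf8, Pparg, Cx3cr1, Maf and Mertk less evenly. To compare cells of unlike depth, each macrophage was thinned to 5000 UMIs, and the variance beyond Poisson noise was divided by the squared mean. For Csf1r this excess was 0.125, and 90.2% of 714 genes within 2-fold of its mean had a larger one. Across unthinned cells its CPM was 78.3 at the 5th percentile, 313 at the median and 693 at the 95th. Spi1, at 0.317, lay close to its like-level median of 0.344, with 88.4, 443 and 1081 CPM at these percentiles. The other 7 members lay above the median of like genes: Adgre1 at 0.473 against 0.386, Cebpb at 0.567 against 0.269, Pparg at 1.51 against 0.407, and Cx3cr1 at 1.58 against 0.447. Maf had 3.91 against 0.849.

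Irf8 had an excess of 3.23 against 0.407, and only 2.05% of 1168 like-level genes exceeded it. Its CPM ran from 0 at the 5th percentile through 110 at the median to 687 at the 95th, and 158 cells held 50% of its UMIs. Csf1r needed 465 cells for the same share. For Mertk 28 cells held 50% of the UMIs and 3 cells 23.5%.

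The share of macrophages with a UMI was also read at a fixed depth. At 5000 UMIs, Csf1r was seen in 78.4% of macrophages, where a Poisson distribution of equal mean gives 81.2%. For Cebpb the values were 84.5% and 97.2%, for Irf8 48.8% and 65.9%, for Pparg 46.9% and 62.7%, and for Cx3cr1 34.2% and 43.6%. In unthinned cells Spi1 was seen in 98.6%, Csf1r in 98.2%, Adgre1 in 97.0% and Cebpb in 96.3% of macrophages. A UMI of each of these 4 genes was found in 1524 of 1669 macrophages (91.3%), and 1 macrophage held none of Csf1r, Adgre1 and Spi1. All 9 members were seen together in 30 cells (1.80%).

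The 2 macrophages with the most Mertk, with 62 and 47 UMIs, also held 31 and 49 UMIs of Mrc1, the gene of the mannose receptor CD206, and 7 and 4 of Timd4, the gene of a phosphatidylserine receptor. Their CD206 antibody counts of 584 and 540 ranked 6 and 7 among 1669 macrophages, whose median was 9. Both fell into the endothelial-like cluster and had 0 UMIs of the endothelial genes Plvap and Kdr and 44 and 26 of C1qa. The other endothelial markers and the stromal markers were not read in these single cells. The 6 endothelial markers summed to 220 CPM over the 10 macrophages of that cluster and to 15.5 CPM over all macrophages, and the 6 stromal markers to 296 and 5.43 CPM. Their part in the Mertk level was not tested. The cell ranked next, with 27 Mertk UMIs, had 0 of Mrc1 and Timd4 and a CD206 count of 7. Without these 3 cells Mertk stood at 12.3 CPM.

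The macrophages formed 8 clusters of at least 100 macrophages, in a clustering that left out the 9 members, and the members' levels were read across them. Genes with at least 1000 UMIs differed by a median of 1.72-fold between the highest and lowest cluster, with 10 CPM added. On this scale Csf1r differed by 1.62-fold, Adgre1 by 2.28-fold, Spi1 by 2.58-fold, Cebpb by 2.75-fold, Cx3cr1 by 3.57-fold, Pparg by 3.88-fold and Irf8 by 4.33-fold. Clusters were built from the same cells, so these are descriptions and their own leading genes are no results.

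The members peaked in different clusters, and some shared a peak. Irf8 was at 465 CPM in cluster 0, led by the interferon-induced genes Ifit3 and Ifit2, and at most 152 CPM in the other 7. That cluster held 19.4% of macrophages and 45.4% of Irf8 UMIs. Mertk was also highest there, at 31.2 CPM, and 40.5% of its UMIs lay in it. Cx3cr1 peaked at 249 CPM in cluster 1, led by Myo1f and Tgfbr1, the next cluster being at 122 CPM, and Csf1r (462 CPM), Adgre1 (540 CPM) and Spi1 (678 CPM) were highest in that cluster too. Pparg peaked at 438 CPM in cluster 3, led by the iron exporter gene Slc40a1 and the fatty acid receptor gene Cd36, against 242 CPM in the next. Cebpb peaked at 1237 CPM in cluster 7, led by Gclc and Cxcl2, and was lowest, at 443 CPM, in cluster 0. Spi1 and Adgre1 were lowest, at 257 and 231 CPM, in cluster 2, led by the heat-shock genes Hspa1b and Hspa1a.

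For most members the median spread within clusters lay below the spread over all macrophages. Clusters hold cells grouped by likeness, and the same count over all genes was not made. The median excess variation within the 8 clusters was 1.1 for Irf8 against 3.23 over all macrophages, 1.01 against 1.58 for Cx3cr1, 1.05 against 1.51 for Pparg and 0.0732 against 0.125 for Csf1r. For Maf it was 5.18, above the 3.91 of all macrophages.

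**Figure D3:**
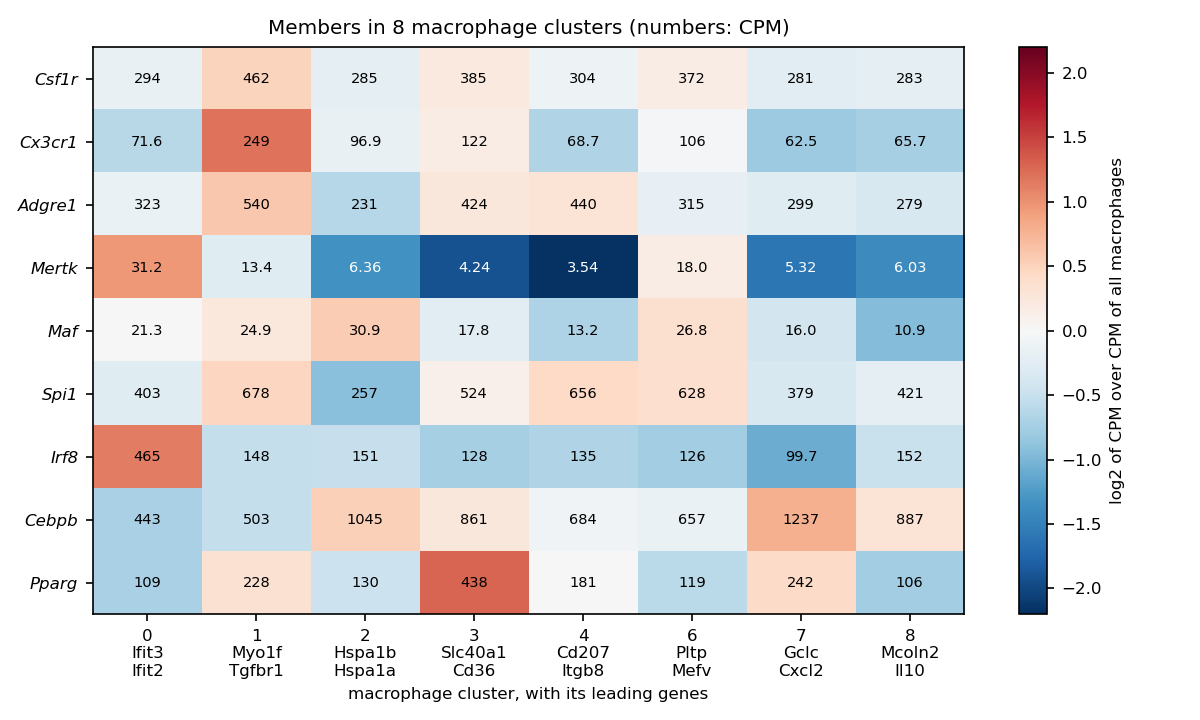
Rows are the members, columns the 8 macrophage clusters with 2 leading genes each, the numbers CPM, and the colour the log2 of that CPM over the CPM of all macrophages. The highest cell of the Irf8 row is cluster 0 (465 CPM), of Cx3cr1 cluster 1 (249 CPM), of Pparg cluster 3 (438 CPM) and of Cebpb cluster 7 (1237 CPM).

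Over single macrophages the correlations between members were low. The highest at 5000 UMIs was that of Csf1r with Cx3cr1 (r = 0.16) and the lowest that of Irf8 with Cebpb (−0.15), while Adgre1 with Spi1 gave 0.11, and 0.21 over the 1579 cells that could be thinned to 10000 UMIs. Among the genes whose log2(1 + thinned UMIs) was most correlated with each member, of 6885 genes over 1669 cells, were, for Irf8, Gbp5 (r = 0.34), Ifit3 and Ifit2, for Cebpb Hmox1 (0.37) and Cxcl2, and for Pparg Cadm1 (0.28), Snx24 and Xylt1. For Cx3cr1 they were Tgfbr1 (0.25), Myo1f and Itgb5, for Spi1 Pou2f2 (0.28), Tgfbr1 and Marcks, and for Csf1r C1qa (0.21), Myo1f and Laptm5. C1qa is one of the genes that chose the macrophages, so cells with little of it were left out. Csf1r stood at 189 CPM in the 57 macrophages with 2000 to 3000 C1q CPM, against 331 CPM over all macrophages. The part of the rule in this correlation was not tested. Adgre1 was closest to Fyb (0.25), Ms4a7 and Pou2f2, Mertk to Abcc5 (0.17), Mrc1 and Gbp7, and Maf to Ccdc117 (0.16), Rnf44 and Ppp1r12b. The lowest correlation of Cebpb was with Ifit3 (−0.24). The points are cells of 1 sample thinned to equal depth, and sparse counts keep such values low.

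Because Pparg differed widely between clusters, the 250 bases before 1 of its 3 annotated starts are shown, from RefSeq on the mouse build GRCm38.p6. The window is chr6:115421816-115422065 (plus strand), with the C/EBP letters TTGCNNAA, found on both strands, in capitals.
Pparg: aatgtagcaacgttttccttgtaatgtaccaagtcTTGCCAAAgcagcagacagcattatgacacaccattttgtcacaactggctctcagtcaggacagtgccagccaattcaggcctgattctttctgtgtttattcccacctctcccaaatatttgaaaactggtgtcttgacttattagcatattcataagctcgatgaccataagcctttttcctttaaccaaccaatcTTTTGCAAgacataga
Counted from the start, the matches lie at −215 to −208 and −16 to −9, and 9.56% of 32851 promoter windows of this length hold those letters. The windows of the other Pparg starts do not hold them. The other motifs given here, searched on both strands, were GAGGAAGT and its core GAGGAA for PU.1, TGCTGA for Maf, and the IRF and PPAR-RXR elements. The letters GAGGAA lay before another Pparg start, at −240 to −235 (23.3% of windows hold them), and TGCTGA, on the minus strand, before 1 of the 2 Irf8 starts, at −157 to −152 (16.1% of windows). No match to any of these motifs lay in the windows of Cebpb, Cx3cr1 and Mertk. A match of letters is a description of the window, and the counts do not tell which start was in use.

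Inflammatory mRNA was then set beside the members. The UMIs of 16 inflammatory genes (Il1a, Il1b, Tnf, Il6, Il12b, Cxcl1, Cxcl2, Cxcl3, Ccl2, Ccl3, Ccl4, Ccl7, Ptgs2, Osm, Nos2 and Il23a) were divided by the RNA UMIs of each macrophage, cells were ranked within deciles of depth, and the 559 highest were compared with the 559 lowest. These genes made up 2.52% of UMIs in the upper and 0.202% in the lower cells. The ranges are parts of 1 continuous score: 340 macrophages lay within 5 percentage points of a boundary.

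Cebpb and Irf8 were at least 1.5-fold higher in the inflammatory cells and Spi1, Cx3cr1 and Mertk at least 1.5-fold lower, Mertk only with 3 cells counted in. The count of lower members, 3 of 9, lies near the 35.0% of all genes that were that much lower. Cebpb stood at 896 CPM in the upper and 553 CPM in the lower cells, a ratio of 1.62 (1.57 to 1.67), and at 720 CPM in the cells between them. Irf8 stood at 274 and 169 CPM, also 1.62-fold (1.53 to 1.71), and at 197 CPM between. Spi1 stood at 578 CPM in the lower and 384 CPM in the upper cells (ratio 0.664, 0.639 to 0.689) and Cx3cr1 at 132 and 85.0 CPM (0.644, 0.595 to 0.697). Of 12143 genes, 8.58% were at least 1.5-fold higher and 35.0% at least 1.5-fold lower, beside 2 and 3 of the 9 members.

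Csf1r (0.750), Adgre1 (0.762), Maf (0.717) and Pparg (0.710) were lower by less than 1.5-fold. The median of all genes tested had a log2 ratio of −0.38 on the CPM scale. Relative to it Csf1r and Adgre1 were at −0.04 and −0.02, Spi1 at −0.22 and Cx3cr1 at −0.26, both then by less than 1.5-fold, and Cebpb and Irf8 both at 1.07. Mertk had 22.7 CPM in the lower and 10.0 CPM in the upper cells (0.442), but all 3 of its richest cells were in the lower group, and without them the values were 11.4 and 10.0 CPM and the ratio 0.880 (0.682 to 1.13).

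Other measures moved with the inflammatory ranking. The dissociation-response genes, such as Fos, Jun, Atf3 and Hspa1a, made up 1.96% of UMIs in the upper and 0.824% in the lower cells. At 5000 UMIs the median upper cell held 1775 genes and the median lower cell 1964. The median CD9 antibody count was 398 in the upper and 1146 in the lower cells. The C1q genes, which chose the cells, were at 6285 and 7702 CPM. Cluster 0 made up 27.7% of the upper and 9.12% of the lower cells, cluster 2 made up 23.4% and 3.76%, and cluster 1 4.11% and 25.9%. The part of dissociation and cell makeup in the ratios over all macrophages was not tested as a cause, and the values within clusters and without them follow.

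**Figure D4:**
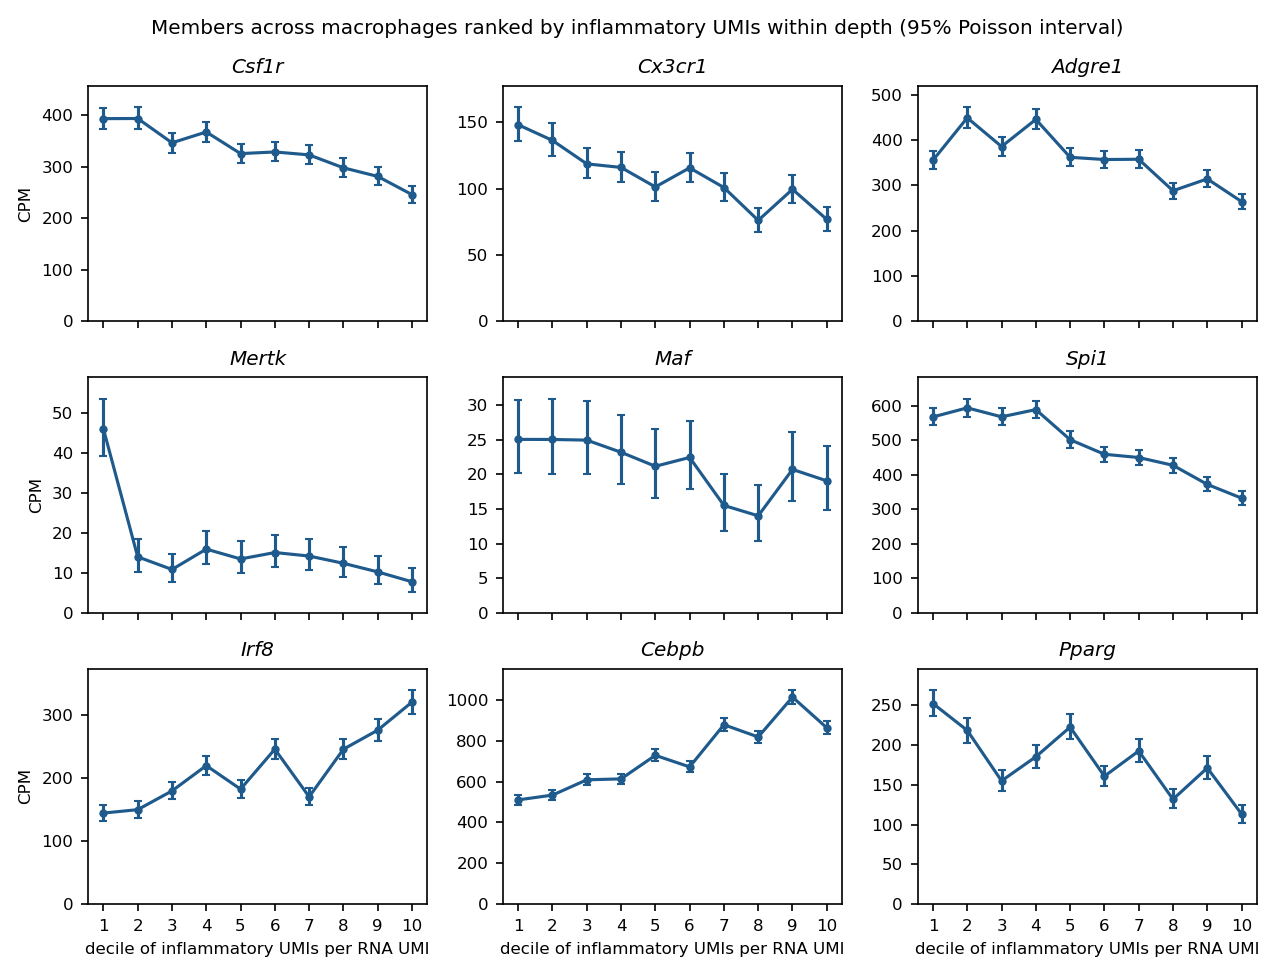
Each panel shows 1 member's CPM (points, with exact 95% Poisson intervals; axes start at 0) over 10 ranges of macrophages ordered by inflammatory UMIs per RNA UMI within depth. Cebpb goes from 510 CPM in range 1 to 863 CPM in range 10 and Irf8 from 144 to 320 CPM, while Csf1r goes from 394 to 246 CPM and Spi1 from 567 to 332 CPM.

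Within clusters the Cebpb ratio lay above 1 and the Csf1r ratio below it throughout. When each of the 8 clusters was split by the same score, the Cebpb ratio lay between 1.01 and 1.5, above 1 in 8 of 8 clusters and with an interval above 1 in 7. The Csf1r ratio lay between 0.781 and 0.966, below 1 in all 8, with an interval below 1 in 4. Of 5972 genes tested in all 8 clusters, 3.32% lay above 1 in each and 11.0% below 1 in each, and the median log2 ratio of all genes in a cluster was between −0.26 and −0.06. Irf8 was above 1 in 6 of 8 (0.776 to 1.62), and Spi1 was above 1 in 4 of 8 (0.627 to 1.3). Without cluster 0 the Irf8 ratio over macrophages was 1.17 (163 against 139 CPM), under the 1.5-fold used here, while the Cebpb ratio was 1.85.

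The ratios also rested on which inflammatory genes were counted. Ccl3, Ccl4 and Cxcl2 gave 72.4% of the inflammatory UMIs. With a score of the other 13 genes the Cebpb ratio was 1.39 (855 against 613 CPM), the Irf8 ratio 1.15, the Spi1 ratio 0.914, and the Cx3cr1 ratio 1.09 (110 against 102 CPM), on the other side of 1.

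The other transcription factors of the list went both ways with the full score: 7 of 30 were at least 1.5-fold higher and 6 lower (median log2 ratio 0.08), beside the 8.58% and 35.0% of all genes and their median of −0.38. The immediate-early factor gene Nr4a1 was 6.53-fold higher and Irf1, an interferon-induced factor gene, 2.47-fold. Irf5 was at 0.583 of the lower cells' level. Of 10 known PPARG target genes, 8 had enough UMIs and 5 were lower, among them Abcg1, a cholesterol exporter gene, at 0.467, and 0 were higher, while Cd36 was at 1.11. Their median log2 ratio was −0.75, beside the same background of 35.0% lower.

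The antibody tags gave a readout besides the mRNA, though the members were chosen with earlier results of these data known. Macrophages were divided into 3 groups by the count of each tag per RNA UMI, ranked within deciles of depth. The median macrophage held 641 CD9 counts but only 9 CD206 counts, so the CD206 ranking rests on few counts. Between the highest and lowest CD9 groups Mertk differed by 1.96-fold (19.2 against 9.84 CPM), or 2.54-fold (19.2 against 7.59 CPM) without its 3 richest cells, and Pparg by 0.627 (136 against 217 CPM), and the other 7 members by less than 1.5-fold, where 10.7% of 12042 genes were higher and 5.66% lower. Clusters 3 and 7, highest in Pparg, had median CD9 counts of 92.5 and 182, the lowest of the 8 clusters. The part of cluster makeup in the values by antibody tag was not tested. Between the CD206 groups Mertk stood at 28.2 and 9.84 CPM, 2.86-fold (2.32 to 3.56), and 2.52-fold (1.97 to 3.25) without its 3 richest cells. The other 8 members differed by less than 1.5-fold, with Csf1r at 1.04 and Pparg at 0.691, where 6.30% of 12144 genes were higher and 5.26% lower.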

How the data were processed

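The authors deposited UMI counts for each gene in each cell. Per the file headers, Cell Ranger 8.0.1 produced them, and the submitters' processing notes name the build mm10. A minimum of 200 genes and a maximum of 10% mitochondrial UMIs left 2215 cells. Scrublet's automatic threshold marked 14 cells (0.632%), and the 40 highest-scoring (0.8% per 1000 barcodes) were removed. The remaining cells were clustered with scanpy 1.11.5 and leidenalg 0.10.2 (2000 variable genes, 30 components, 15 neighbours, resolution 1), leaving out 28 genes: the members, the C1q genes and the inflammatory genes. Macrophage clusters were those most of whose cells passed the C1q rule. Other cluster names mean "X-like" and needed 3 passing markers, detected in 25% of cells and 2-fold enriched with 10 CPM added. UMIs were summed per class and scaled to CPM, with exact conditional binomial (ratios), Poisson (levels) and Clopper-Pearson (shares) 95% intervals. UMI counts were thinned to 5000 per cell for spread. A gene entered a comparison with at least 20 UMIs in both sums together. The members and gene lists were chosen with earlier results of these data known. From each list the genes named are at most 4 per direction with at least 100 UMIs and a 2-fold ratio. Tyro3, Lyve1, Vsig4, Marco, and, by inflammatory UMIs, Irf5 and Cd36 were chosen after their values were seen. Scripts were tested on simulated counts. Alternatives are in the closing section. Some items are not reported here.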

Additional observations from a re-analysis of the deposited data

How the results depend on the processing

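No paired analysis was possible because the series holds 1 pooled sample and no groups. The counts of members above lymphocytes (6 to 7), above dendritic cells (6 to 8), below dendritic cells (0) and with less spread than like-level genes (2) held under every alternative run for them. The counts by inflammatory UMIs did not. In place of 2 members higher, there were 0 with an upper against lower 50% split, 0 with a score without Ccl3, Ccl4 and Cxcl2, and 1 (Cebpb) without cluster 0. In place of 3 members lower, there was 1 when C1q was set at 4000 CPM (Cx3cr1) and 1 using only macrophages of macrophage clusters and the low-depth cluster (Spi1). There was also 1, Mertk each time, with no doublet removal, with the 50% split, with totals free of inflammatory and dissociation genes, with the shorter score and relative to the median of all genes. The cause was not tested. Cx3cr1 reversed with the shorter score, to a log2 ratio of 0.12. Of 342 values of single members under alternatives, 262 stayed within their error, 79 moved and 1 reversed. Only a member called higher or lower in the main setting could count as reversed. Other values that changed side counted as moved. Among them were Irf8 against only the Xcr1 or Clec9a dendritic cells (ratio 0.559) and Adgre1 by the shorter score (1.003). The removal of cluster 0 or 2, of the 3 Mertk-rich cells or of the ILC2-like cells was chosen after seeing the data. So were ratios relative to the median and the split of dendritic cells by Xcr1 or Clec9a. The setting with only macrophages of macrophage clusters and the low-depth cluster was also chosen then. The depth limits Mertk and Maf most, and the 8 ILC2-like, 17 monocyte-like and 17 Xcr1 or Clec9a cells are few.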
